A study of Homo sapiens with 6 samples.

Results

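THE1 elements are remnants of an old primate family of retrovirus-like elements, and they were taken here as every annotated LTR element whose name starts with THE1. Of 720177 LTR elements with a value in each library, 59104 were THE1 elements, 48919 of them long terminal repeats (LTRs) and 10185 internal pieces. They covered 26.9 Mb, or 10.1% of the LTR bases. The LTRs comprised 4203 THE1A, 22362 THE1B, 9771 THE1C and 12583 THE1D. The internal pieces comprised 1439 THE1A-int, 4179 THE1B-int, 1803 THE1C-int, 2553 THE1D-int and 211 named THE1-int alone. RNA of 4 cell lines of atypical teratoid rhabdoid tumor (AT/RT), an embryonal brain cancer, was sequenced, namely CHLA 02, 04, 05 and 06. Every line was grown untreated in the same serum-free medium with EGF, basic FGF and B-27. Each line gave 1 biological sample, and CHLA 04 and CHLA 06 were each sequenced in 2 technical replicates, so there were 6 libraries. Lines were therefore compared by values, without a test. The replicates carry technical spread only, and in bulk RNA a larger share of cells that read an element cannot be told apart from more RNA per cell.

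THE1 elements belong to the mammalian apparent LTR retrotransposons, relatives of the ERVL endogenous retroviruses. A complete copy has an LTR at each end of an internal region, and the LTR carries the start and end signals of the element's own transcript. The internal region holds no gene for the enzymes of retrotransposition, so copies depended on other elements to spread. Most copies are solitary LTRs. THE1 LTRs are known as alternative promoters of human genes, above all a THE1B LTR that drives CSF1R, the receptor of macrophage colony-stimulating factor, in Hodgkin lymphoma. THE1B is also the repeat in which the binding motif of PRDM9, the meiotic recombination factor, was recognised. An element that lies inside a gene is also copied as part of the gene's unspliced RNA.

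The files give TPM over LTR elements, a level per length and per library, from which whole reads were recovered. The libraries held 355302 to 511408 reads on LTR elements and 10265899 to 20520229 on transcripts, so that a single read weighed 0.899 to 1.34 TPM per kb of element length. THE1 elements took 42083 to 56412 of these reads. The 4 lines are described in the study as without expression of SMARCB1, the chromatin remodeling gene lost in most AT/RT. In these files SMARCB1 was listed at 13.5 to 26.2 TPM over transcripts in every library (114 to 202 reads). Some RNA of the gene was thus read. Whether that RNA is intact or makes protein was not looked at. Between technical replicates, 71.1% of 1347 THE1 elements of CHLA 04 and 83.9% of 1314 of CHLA 06 were within 2-fold. Internal THE1 pieces were higher in replicate 1 than in replicate 2 of CHLA 04 for 78.8% of 345 pieces, with a median log2 ratio of 0.57, against 55.9% of 306 pieces and a median of 0.10 in CHLA 06. Every comparison of lines below shares libraries with the others.

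The library labelled CHLA 02 stood apart, and it bears on every comparison of lines. Of 75 THE1 elements with at least 20 reads in both CHLA 06 libraries and at most 1 read in each library of CHLA 04 and CHLA 05, all 75 had more than 1 read in CHLA 02, at a median of 0.38 times their CHLA 06 level. Of 41 elements chosen in the same way in CHLA 04, all 41 had more than 1 read in CHLA 02, at a median of 0.741 times their CHLA 04 level. Of 20 elements chosen in CHLA 05, 2 had more than 1 read in CHLA 02 and 14 had none. No THE1 element had 20 reads in CHLA 02 and at most 1 read in each other library. By the same rule 0 were particular to CHLA 04, 18 to CHLA 05 and 0 to CHLA 06. Among all LTR elements, 656 of 659 chosen in CHLA 06 had more than 1 read in CHLA 02. Of 268 chosen in CHLA 04, 267 had more than 1 read in CHLA 02. Particular to 1 line were 0 LTR elements for CHLA 02, 1 for CHLA 04, 145 for CHLA 05 and 3 for CHLA 06. For 73.9% of the 2253 THE1 elements with 10 reads in a library, the CHLA 02 level was neither the highest nor the lowest of the 4 lines, against 36.4% to 51.9% for the other lines. The cause was not tested, so calls of elements higher in a line are given with and without the library labelled CHLA 02. Calls of elements lower in a line were made with it only.

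**Figure D1:**
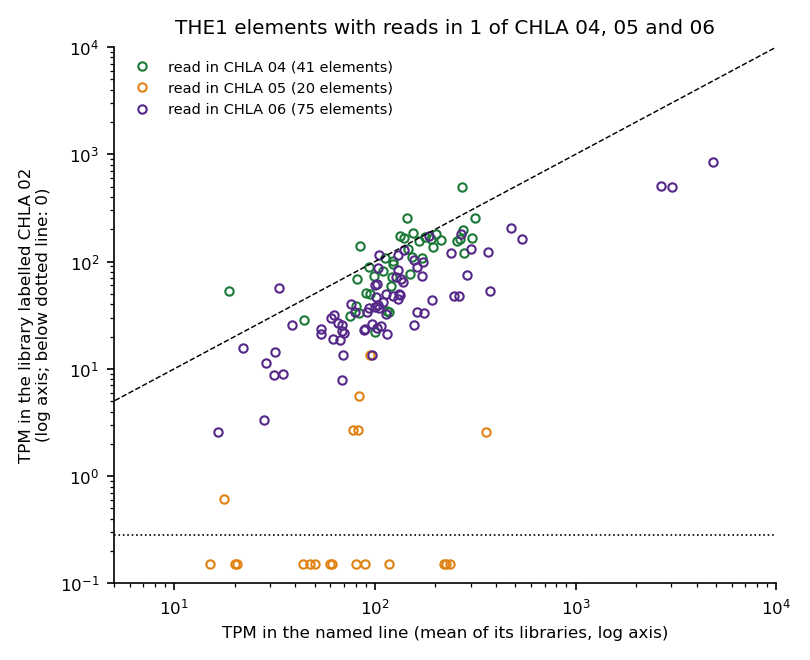
Each point is a THE1 element with at least 20 reads in every library of 1 of CHLA 04, CHLA 05 and CHLA 06 and at most 1 read in the libraries of the other 2 lines. The x axis is its TPM in that line and the y axis its TPM in the library labelled CHLA 02, both on log axes, with values of 0 drawn below the dotted line and equal levels on the dashed line. The 41 CHLA 04 and 75 CHLA 06 elements all lie above the dotted line, and 14 of the 20 CHLA 05 elements lie at 0.

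THE1 elements took 10.2% to 14.05% of LTR reads for 10.1% of LTR bases. THE1 took 11.1% of LTR reads in CHLA 02 (95% Wilson interval 10.99 to 11.17), 14.05% and 11.03% in the replicates of CHLA 04, 10.2% in CHLA 05 (10.1 to 10.3), and 12.4% and 11.2% in those of CHLA 06. The mean was 12.5% ± 2.13 in CHLA 04 and 11.8% ± 0.802 in CHLA 06 (SD, n = 2 technical replicates). The intervals cover counting error only. The CHLA 04 replicates spanned nearly the whole range of the lines, so the order of the lines was not larger than the spread between replicates. LTRs took 6.27% to 7.36% of LTR reads in all 6 libraries. Internal pieces varied more, at 4.17% in CHLA 02, 6.69% and 4.34% in CHLA 04 and 3.89% in CHLA 05, with 5.43% and 4.56% in CHLA 06.

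The subfamilies differed in reads per base. THE1A LTRs make up 0.506% of LTR bases and took 0.578% to 0.967% of LTR reads, above their share of bases in every library. THE1B LTRs, 2.75% of the bases, took 2.65% to 3.07%. THE1D LTRs, 1.51% of the bases, took 1.49% to 1.89%. THE1C-int stood out in CHLA 06. With 0.736% of the bases it took 0.696% of LTR reads in CHLA 02, 0.659% and 0.394% in CHLA 04 and 0.347% in CHLA 05, with 2.44% and 1.74% in CHLA 06. Without the single piece that lies antisense in RAD51B, THE1C-int was at 0.449% ± 0.0601 in CHLA 06 and 0.526% ± 0.188 in CHLA 04 (SD, n = 2), and these ranges overlap. Without all THE1 elements antisense in RAD51B, the mean THE1 share was 9.86% in CHLA 06, against 10.2% in CHLA 05. The spread of this share between replicates was not computed, so the 2 lines are not ranked.

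**Figure D2:**
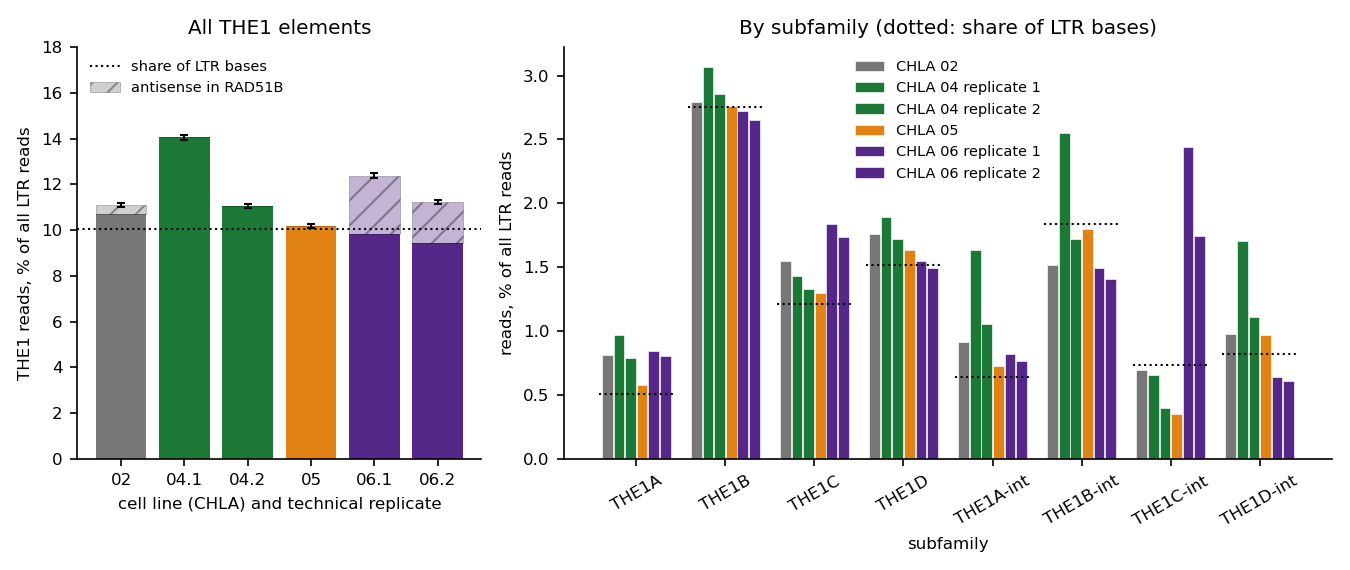
Left, THE1 reads as a percentage of all LTR reads in each library (bars), with the part from elements antisense in RAD51B hatched, 95% Wilson intervals as error bars, and the THE1 share of LTR bases dotted. Right, the same percentage by subfamily and library, with the share of LTR bases dotted for each subfamily. THE1C-int is at 2.44% and 1.74% in CHLA 06 and at 0.347% to 0.696% elsewhere.

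Few THE1 elements had enough reads to compare. At least 1 read in a library was found on 11233 elements (19.0%), at least 10 reads in a library on 2253 (3.81%), and at least 10 reads in every library on 302. The same share with 10 reads was 2.76% of all LTR elements, 3.67% of the related MST elements and 2.40% of MLT1 elements, an older branch. By subfamily it ran from 3.31% of THE1B to 8.34% of THE1A-int, which are also longer pieces and so collect more reads at equal TPM. Elements with at least 10 reads held 69.1% to 80.2% of the THE1 reads of a library. The most read element held 1.35% to 2.57% of THE1 reads in CHLA 02, CHLA 04 and CHLA 05, but 15.8% and 11.9% in CHLA 06. Of the 2253 elements, 2076 (92.1%) had every window of 100 bases once in the genome and 25 had none, so a stretch of that length does not point to 1 copy for those 25.

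Elements with reads lay mostly in genes and on the strand of the gene. Of 9398 THE1 elements that lie in introns on the strand of the gene, 1486 (15.8%) had 10 reads in a library, against 77 of 12485 (0.617%) that lie in introns on the opposite strand and 486 of 35399 (1.37%) outside Ensembl genes. In exons, 93 of 525 sense elements (17.7%) and 3 of 194 antisense elements (1.55%) had 10 reads. Of the 1659 elements with 10 reads that lie in genes of a single strand, 95.2% were sense, against 39.8% of the elements with fewer reads and 30.1% of those with none. MST elements (94.9% sense) and MLT1 elements (92.6% sense) had the same order. Weighted by reads the sense share was 85.8%. In CHLA 06, antisense elements in genes held 13492 and 10660 reads, of which 11411 and 8624 lay in RAD51B. The libraries were stranded, but whether strand was used in counting is not given in the sources used here. Of the 486 elements outside Ensembl genes, 125 lie on the strand of a gene in GENCODE 44 and 342 lie outside its genes too.

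The share of sense elements with reads was higher in genes of higher level, the mean TPM of the gene over the 6 libraries. In genes under 1 TPM, 45 of 4996 sense intronic elements (0.901%) had 10 reads. In genes at 1 to 10 TPM the share was 13.4%, at 10 to 100 TPM 43.8% and at 100 TPM or more 62.9% of 418 elements. For antisense intronic elements it was 0.345%, 0.85%, 0.794% and 1.21% over the same levels. The 1486 intronic sense elements lay in 878 host genes, with up to 16 elements in 1 gene (WBSCR17, named GALNT17 in GENCODE 44, a glycosyltransferase), 13 each in FBXL7 and ADGRB3, and 12 in IMMP2L.

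**Figure D3:**
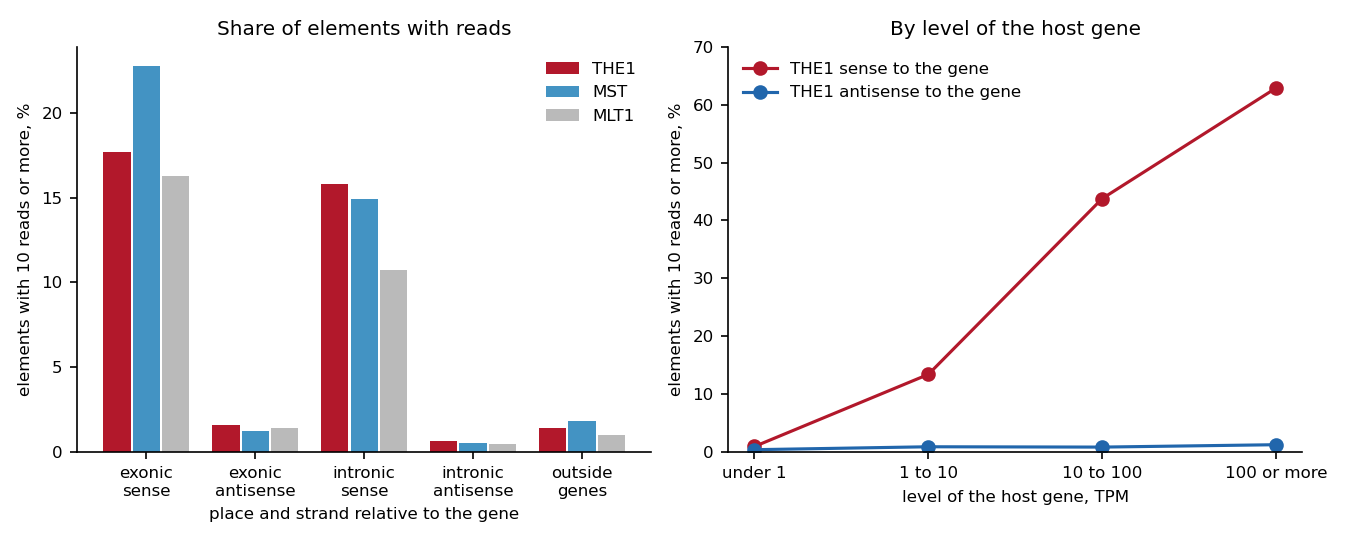
Left, the percentage of elements with 10 reads or more in a library (bars) by place and strand relative to the gene, for THE1, MST and MLT1 elements. Right, the same percentage for THE1 elements in introns against the mean TPM of the host gene, for elements sense and antisense to the gene. Sense elements reach 62.9% in the highest group and antisense elements stay at or below 1.21%.

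The strongest THE1 signal was antisense. RAD51B, a DNA repair gene, is on the plus strand of chromosome 14, and 13 of its 14 THE1 elements lie on the minus strand. Among them is a THE1C provirus in an intron, that is, an internal piece between a 5′ and a 3′ LTR, which are 81.1% identical over 381 alignment columns (GRCh38). The internal piece, THE1C-int at chr14:68101247-68102806, was at 845 TPM in CHLA 02 (1328 reads), at 0 and 0.58 TPM in CHLA 04 (0 and 1 read), at 0 in CHLA 05, and at 5749 and 3946 TPM in CHLA 06 (8754 and 6421 reads). Only CHLA 06 and the library labelled CHLA 02 thus had more than 1 read of it. The 3′ LTR of the provirus (chr14:68100874-68101246) was at 493 TPM in CHLA 02, at 0 in both CHLA 04 libraries and in CHLA 05, and at 3460 and 2603 TPM in CHLA 06. Against the level of 3 reads, its lowest CHLA 06 library was at least 242-fold higher than CHLA 04. The THE1A LTR downstream (chr14:68098409-68098766) was at 508 TPM in CHLA 02, 0 in CHLA 04, 3.07 TPM in CHLA 05 (1 read), and 2985 and 2356 TPM in CHLA 06.

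The 5′ LTR (chr14:68102807-68103161) was far lower than the rest of the provirus. It was at 53.1 TPM in CHLA 02 (19 reads), 0 in CHLA 04 and CHLA 05, and 439 and 311 TPM in CHLA 06 (152 and 115 reads). Its CHLA 06 mean of 375 ± 90.6 TPM stood against 4847 ± 1275 for the internal piece, 3032 ± 606 for the 3′ LTR and 2670 ± 444 for the downstream THE1A (SD, n = 2). The level thus stepped up between the 5′ LTR and the internal piece in both CHLA 06 libraries and in CHLA 02. The CHLA 02 levels were 0.142, 0.174, 0.162 and 0.19 times the CHLA 06 means, in the order 5′ LTR, internal piece, 3′ LTR and THE1A.

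Reads were also found on minus-strand elements beyond the provirus. Within 10 kb of its 5′ end the 4 elements above held 11209 and 8429 reads in CHLA 06, and between 10 and 100 kb downstream 10 LTR elements on the same strand held 511 and 430. The THE1B LTR at chr14:68031057-68031417, 71.9 kb downstream, was at 193 and 191 TPM in CHLA 06, 44 TPM in CHLA 02 and 0 in CHLA 04 and CHLA 05. A THE1A-int piece 135 kb downstream, at chr14:67967301-67968868, was at 33.3 and 23.8 TPM in CHLA 06 and 11.4 TPM in CHLA 02. Upstream, 5 same-strand LTR elements within 60 kb held 148 and 136 reads in CHLA 06, of which 103 and 67 lay on an MLT1E3 element 26.9 kb away at 366 and 223 TPM. The 3 LTR elements on the strand of RAD51B between 10 and 100 kb downstream held 285 and 235 reads in CHLA 06, 115 in CHLA 02, 7 and 11 in CHLA 04 and 4 in CHLA 05. On the strand of the provirus, CHLA 04 and CHLA 05 had 1 to 4 reads per library over the whole stretch. RAD51B itself, in TPM over transcripts, was at 30.7 in CHLA 02, 18.2 and 16.7 in CHLA 04 and 9.63 in CHLA 05, with 43.2 and 39.4 in CHLA 06. In GENCODE 44 the provirus and the THE1A LTR overlap RAD51B alone, on its opposite strand.

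**Figure D4:**
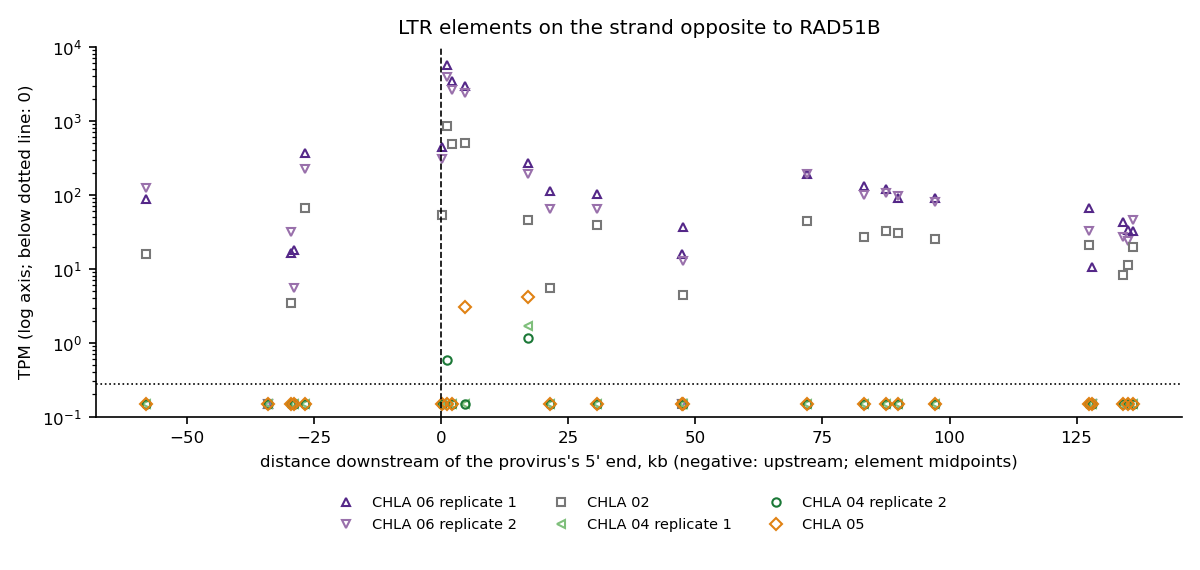
Level of each LTR element that lies on the strand opposite to RAD51B (points, TPM on a log axis, values of 0 below the dotted line) against its distance from the 5′ end of the provirus in kb, for the 6 libraries. In CHLA 06 and CHLA 02 the level steps up between the 5′ LTR, at 311 to 439 TPM in CHLA 06, and the internal piece, at 3946 to 5749 TPM, and is lower again further downstream.

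Calls between lines were made by size. An element was tested if it had 10 reads in a library, and it was called higher in a line if each library of that line was at least 4 times each library of the others, with lower values raised to the level of 3 reads. Over 19846 LTR elements tested, 3.39% were called higher in CHLA 05 and 0.962% in CHLA 06, with 0.312% for CHLA 04 and 0.0756% for CHLA 02. Over the 2253 THE1 elements tested, 78 were called in CHLA 05 (3.46%) and 23 in CHLA 06 (1.02%), close to the shares of all LTR elements, with 11 for CHLA 04 (0.488%) and 0 for CHLA 02. Without the library labelled CHLA 02, over 2208 THE1 elements, the counts were 79 in CHLA 05, 159 in CHLA 06 and 170 in CHLA 04, against 3.58%, 6.73% and 5.25% of all LTR elements and 3.58%, 7.20% and 7.70% of THE1 elements. Called lower were 77 THE1 elements in CHLA 06 and 7 in CHLA 05, against 2.37% and 0.403% of all LTR elements, with 1 for CHLA 04 and 0 for CHLA 02, against 0.297% and 0%.

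In CHLA 05 the 78 elements lay at 55 loci, with loci split at gaps over 200 kb, and 52 were on the strand of a host gene. Of their 41 host genes, 31 were themselves at least 4 times higher in CHLA 05 in gene TPM, against 42 of the 941 genes that host any sense THE1 element with 10 reads (4.46%). The THE1D LTR at chr1:102994769-102995151, in an intron of COL11A1, a fibrillar collagen gene, was at 356 TPM in CHLA 05 (124 reads), at 2.59 TPM in CHLA 02 (1 read) and at 0 in the 4 other libraries. COL11A1 was at 1070 TPM over transcripts in CHLA 05 and at 0.02 to 0.78 TPM in the other libraries. Reads were also found past the annotated end of the gene. Within 10 kb beyond its 3′ end all 7 THE1 elements lie on its strand, 2.81 to 8.05 kb past the end, and held 162 reads in CHLA 05, at 20.5 to 89.1 TPM, and none in any other library. Whether these reads belong to a transcript of COL11A1 was not tested. The 2 THE1C LTRs inside COL11A1 on the opposite strand had no read in any library.

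Of the other elements of CHLA 05, some lay outside Ensembl genes. The THE1B-int piece at chr14:43073169-43074733, 369514 bp from the nearest annotated gene, was at 225 TPM in CHLA 05 (321 reads, exact Poisson interval 201 to 252 TPM) and at 0 in all 5 other libraries, at least 88.1-fold higher against 3 reads per library. The THE1B LTR at chr13:109261721-109262076, 19897 bp from LINC00370, was at 238 TPM in CHLA 05 (77 reads) and at 0 elsewhere, at least 21.1-fold higher. The THE1D-int piece at chr22:11920814-11922336 was at 298 TPM in CHLA 05 and at 2.69 to 11.4 TPM in the other libraries, and 94.7% of its windows are single in the genome. The THE1D LTR at chr5:34288024-34288370, in an exon of a gene that GENCODE 44 lists by its identifier alone, was at 1007 TPM in CHLA 05, 114 TPM in CHLA 02, 73.1 and 88.1 TPM in CHLA 04, and 2.95 and 2.76 TPM in CHLA 06. Only 25.4% of its windows are single, with a second copy of the rest. Other loci with several called elements lay in NLGN4X, a synaptic adhesion gene (3 elements, 52 reads in CHLA 05 against 0 to 2 in the other libraries), in CNTNAP2, of the neurexin family (3 elements, 64 reads against 0 to 9), and in CDH4, a cadherin gene (2 elements, 34 reads against 0 to 6).

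In CHLA 06, of the 23 elements at 15 loci, 5 lay antisense in RAD51B. Of the 8 genes that host sense elements among the 23, 1 was itself at least 4 times higher in CHLA 06 than in every other library, against 1 of the 941 host genes (0.106%). The count of 23 became 7 when scaled by transcript reads, 40 without replicate 1 of CHLA 06 and 55 without replicate 2. Another 3 lay in FMO1, a flavin monooxygenase, at chr1:171269169-171273331, with 339 and 251 reads in CHLA 06, 52 in CHLA 02 and 0 in CHLA 04 and CHLA 05. FMO1 was at 182 and 117 TPM over transcripts in CHLA 06, 37.1 in CHLA 02 and 0 in the rest. The THE1B-int piece at chr2:189243900-189244802, outside genes, was at 27.2 and 28.7 TPM in CHLA 06 and at 1 to 3.3 TPM elsewhere. The THE1C LTR at chr9:12847851-12848226, 25720 bp from LURAP1L, was at 59.9 and 76.5 TPM in CHLA 06, 7.92 TPM in CHLA 02 and 0 in the rest. The THE1B-int piece at chr12:71111641-71113200, in CTD-2021H9.3, was at 17.7 and 15.4 TPM in CHLA 06, 2.55 TPM in CHLA 02 and 0 in the rest.

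In CHLA 04 the 11 elements lay at 11 loci. Of the 7 genes that host sense elements among them, 0 were themselves at least 4 times higher, against 2 of the 941 host genes (0.213%). The count of 11 became 48 without replicate 2 of CHLA 04 and 17 without replicate 1. The THE1B LTR at chr10:13833138-13833485, in FRMD4A, a scaffold protein gene, was at 196 and 191 TPM in CHLA 04, 37.1 TPM in CHLA 02, 18.9 TPM in CHLA 05, and 2.94 and 0 TPM in CHLA 06. FRMD4A was at 552 and 391 TPM over transcripts in CHLA 04, against 152 in CHLA 02, 184 in CHLA 05 and, for CHLA 06, 2.43 and 1.93. The THE1B LTR at chr1:56388690-56389043 was at 113 and 152 TPM in CHLA 04, 19.6 TPM in CHLA 02, 12.4 TPM in CHLA 05, and 2.89 and 0 TPM in CHLA 06. A THE1A-int piece in ATRNL1 (chr10:115105231-115106492) was at 38.1 and 15 TPM in CHLA 04 and at 0 to 2.61 TPM elsewhere. A THE1B LTR at chr17:71784983-71785281, 187704 bp from the nearest gene, was at 67 and 66.1 TPM in CHLA 04, 13.3 TPM in CHLA 02 and 0 in the rest.

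Most elements called lower, with the library labelled CHLA 02 included, were lower in CHLA 06. Of these 77 elements, 8 lay at a locus in ADGRB3 and 3 each at loci in TIAM1, CADM2, ADGRV1, FAT4 and PTN. NPAS3 held 2 at chr14:32995503-32997423 and 2 at chr14:33317456-33442804. Of the 31 genes that host sense elements among the 77, 27 were themselves at least 4 times lower in CHLA 06, against 77 of the 941 host genes (8.18%). The PTN elements held 120 reads in CHLA 02, 279 and 310 in CHLA 04 and 158 in CHLA 05, with 0 in both CHLA 06 libraries. PTN encodes pleiotrophin, a growth factor of the developing brain. Of the 7 lower in CHLA 05, the THE1C LTR at chr6:110244461-110244837 was the strongest. It lies antisense in an intron of the splicing gene CDC40 and, in GENCODE 44, sense in METTL24. It was at 424 TPM in CHLA 02, 99.2 and 186 TPM in CHLA 04, 0 in CHLA 05, and 1285 and 920 TPM in CHLA 06. METTL24 followed the same order over transcripts, at 25.7 in CHLA 02, 21.9 and 18.9 in CHLA 04 and 0 in CHLA 05, with 60.8 and 38.5 in CHLA 06, whereas CDC40 was at 32 to 139 TPM in every library. The single element lower in CHLA 04, an internal piece in TGFB2 at chr1:218417045-218418622, had 0 and 2 reads in CHLA 04, against 39 in CHLA 02, 18 in CHLA 05 and, for CHLA 06, 163 and 114.

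**Figure D5:**
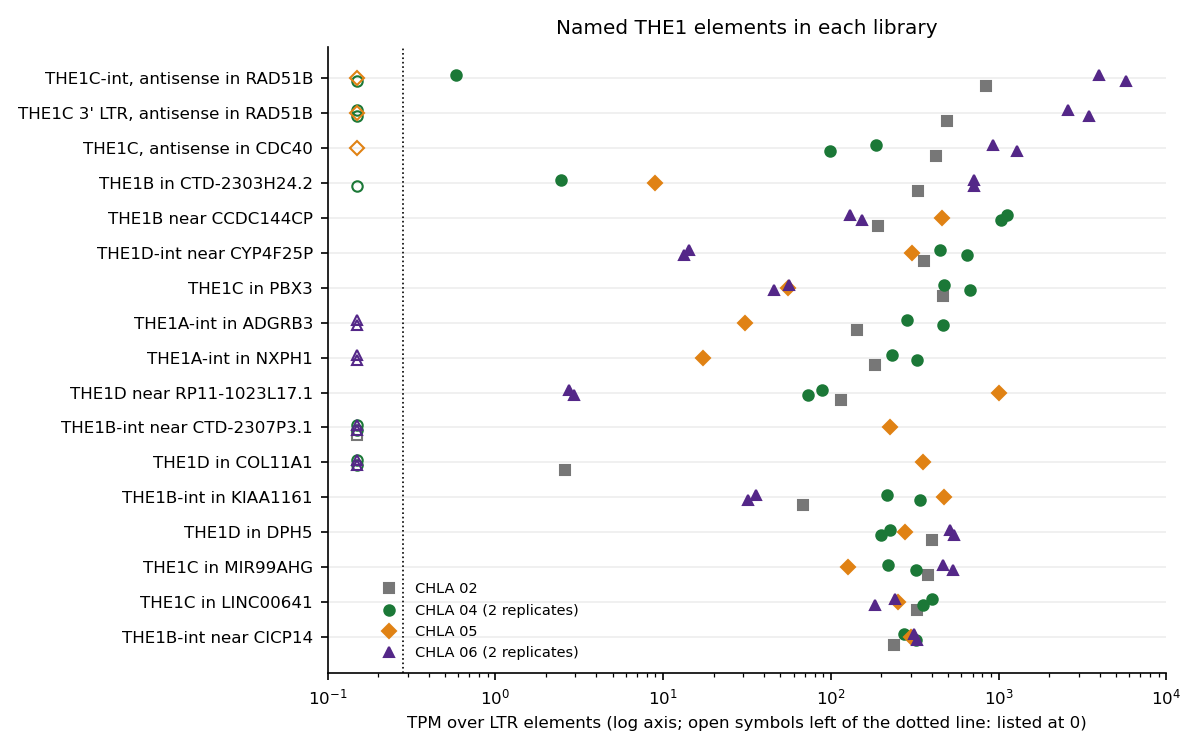
TPM over LTR elements (log axis) of 17 named THE1 elements in each library, with values listed at 0 drawn as open symbols left of the dotted line. The elements in RAD51B reach 2603 to 5749 TPM in CHLA 06, the THE1A-int pieces in ADGRB3 and NXPH1 are at 0 there, the THE1B-int piece whose nearest gene is CTD-2307P3.1, 369514 bp away, is above 0 in CHLA 05 alone, and the THE1B-int near CICP14 is at 238 to 328 TPM in all 6 libraries.

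CHLA 04 and CHLA 06 were compared on their own, since both have replicates. Of 17375 LTR elements tested, 9.33% were called higher in CHLA 06 and 11.1% higher in CHLA 04. Of 1995 THE1 elements, 181 were called higher in CHLA 06 (9.07%, at 99 loci) and 301 higher in CHLA 04 (15.1%, at 141 loci), so 37.6% of the calls were higher in CHLA 06. LTR reads per 100 transcript reads were 3.46 and 2.95 in CHLA 04 and 2.39 and 2.35 in CHLA 06, a log2 shift of 0.44. Scaled by transcript reads in place of LTR reads, 118 were called higher in CHLA 06 and 382 higher in CHLA 04, a split of 23.6% in CHLA 06. The shares of all LTR elements under that scaling are not given, so this split is not read as particular to THE1. Of the host genes of sense elements called higher in CHLA 04, 82.2% of 90 were themselves at least 4 times higher, against 15.8% of the 941 host genes, and in the other direction 65.8% of 76 against 9.03%.

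The largest group of elements higher in CHLA 04 lay on chromosome 11, where 21 called elements spread over 791 kb at chr11:109159059-109950240. Nearly all reads there lay on elements of 1 strand. The 25 elements on the minus strand, 24 of them with 10 reads, held 2032 reads in CHLA 02, 3286 and 1263 in CHLA 04 and 3 in CHLA 05, with 2 and 0 in CHLA 06. The 8 elements on the plus strand held 0 to 3 reads in each library. Ensembl places RP11-262A12.1 and RP11-708B6.2 in the stretch, and in GENCODE 44 called elements lie on the strand of LINC02715, of RDX, the gene of the cytoskeletal linker radixin, or of genes listed by identifier alone. Replicate 1 of CHLA 04 had more reads there than replicate 2 at a lower depth, so the technical spread of this group is large. The pieces with the most reads in CHLA 04 were THE1A-int at chr11:109901299-109902850, with 504 and 172 reads in CHLA 04 and 251 in CHLA 02, and THE1B-int at chr11:109714049-109715631, with 499 and 163 reads and 250 in CHLA 02.

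The next groups lay in single genes. ADGRB3, an adhesion receptor of brain synapses, holds 13 THE1 elements on its own strand and 6 on the other. The 13 sense elements held 1317 reads in CHLA 02, 2508 and 2670 in CHLA 04 and 241 in CHLA 05, with 2 in each CHLA 06 library, and the 6 antisense elements held 0 to 3. ADGRB3 itself was at 103 TPM over transcripts in CHLA 02, 220 and 229 in CHLA 04 and 24.17 in CHLA 05, with 0.03 and 0.33 in CHLA 06, the same order. Its THE1A-int piece at chr6:68845821-68847384 was at 144 TPM in CHLA 02, 468 and 284 TPM in CHLA 04, 30.9 TPM in CHLA 05 and 0 in CHLA 06, at least 145-fold higher in CHLA 04 than in CHLA 06. The other named internal pieces of the gene, THE1D-int at chr6:68866495-68868098 and THE1B-int at chr6:68856238-68857790, were at 268 to 396 TPM in CHLA 04 and at 0 to 0.6 TPM in CHLA 06. In NXPH1, which encodes the synaptic ligand neurexophilin, 7 sense elements held 808 reads in CHLA 02, 764 and 962 in CHLA 04 and 56 in CHLA 05, with 0 in CHLA 06. Its THE1A-int piece at chr7:8524932-8526510 was at 184 TPM in CHLA 02, 326 and 233 TPM in CHLA 04, 17.4 TPM in CHLA 05 and 0 in CHLA 06. In WBSCR17, 21 sense elements held 258 reads in CHLA 02, 567 and 566 in CHLA 04 and 117 in CHLA 05, with 7 and 10 in CHLA 06, and 23 antisense elements held at most 1 read per library. On the X chromosome, 9 plus-strand elements at chrX:26634878-26912456, outside Ensembl genes, held 264 reads in CHLA 02, 619 and 534 in CHLA 04, and 0 or 1 in CHLA 05 and CHLA 06. There GENCODE 44 places VENTXP1 on the strand of called elements.

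In the other direction, the largest group called higher in CHLA 06 than in CHLA 04 lay in RAD51B and held elements of both strands. CCDC102B, a centrosomal linker gene, has 9 sense elements, with 373 reads in CHLA 02, 2 and 5 in CHLA 04 and 1 in CHLA 05, with 371 and 400 in CHLA 06. It was at 364 TPM over transcripts in CHLA 02, 11 and 7.77 in CHLA 04 and 9.84 in CHLA 05, with 311 and 325 in CHLA 06. Outside Ensembl genes, 8 plus-strand elements at chr2:185483815-185524918 had 119 reads in CHLA 02, 0 in CHLA 04 and CHLA 05, and 228 and 249 in CHLA 06. There GENCODE 44 places a gene listed by its identifier alone on the strand of called elements. DPH6, a gene of diphthamide synthesis, has 6 sense elements, with 175 reads in CHLA 02, 23 and 21 in CHLA 04 and 15 in CHLA 05, with 483 and 384 in CHLA 06.

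A pair of near-identical THE1B LTRs on chromosome 17, each of 367 bp with 3 differing bases (99.2% identity), went opposite ways. The copy at chr17:20406931-20407297, 3374 bp from the pseudogene CCDC144CP, was at 192 TPM in CHLA 02, 1033 and 1119 TPM in CHLA 04, 458 TPM in CHLA 05, and 154 and 131 TPM in CHLA 06. The copy at chr17:18536939-18537305, in an intron of CTD-2303H24.2, within FAM106A in GENCODE 44, was at 330 TPM in CHLA 02, 0 and 2.45 TPM in CHLA 04, 8.99 TPM in CHLA 05, and 712 and 710 TPM in CHLA 06. The levels of the CHLA 04 and CHLA 06 libraries did not overlap for either copy. Of their windows of 100 bases, 57.1% and 41% are single in the genome and the rest occur in up to 3 places, so part of the reads may fit more than 1 copy. The genes beside or around them were ordered likewise over transcripts. CCDC144CP was at 171 and 150 TPM in CHLA 04 and at 13 and 11.8 TPM in CHLA 06, and CTD-2303H24.2 was at 10.9 and 10.7 TPM in CHLA 04 and at 86.4 and 90.3 TPM in CHLA 06.

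Some of the strongest THE1 elements were read in every line. The THE1B-int piece at chr7:128661629-128663174, 2838 bp from CICP14, was at 238 TPM in CHLA 02, 323 and 273 TPM in CHLA 04, 302 TPM in CHLA 05, and 328 and 314 TPM in CHLA 06. Its mean was 298 ± 35.2 in CHLA 04 and 321 ± 9.64 in CHLA 06 (SD, n = 2), within the spread between replicates. The shortened LTR before it was at 145 to 204 TPM and the LTR after it at 70.2 to 128 TPM. In GENCODE 44 the piece and both LTRs overlap exons of a same-strand gene listed by its identifier alone. The THE1C LTR in LINC00641 (chr14:21203852-21204211) was at 328 TPM in CHLA 02, 356 and 400 TPM in CHLA 04, 250 TPM in CHLA 05, and 182 and 240 TPM in CHLA 06. The THE1D LTR in an exon of DPH5 (chr1:100990016-100990359) was at 398 TPM in CHLA 02, 198 and 225 TPM in CHLA 04, 275 TPM in CHLA 05, and 545 and 510 TPM in CHLA 06. The THE1C LTR at chr21:16297759-16298134, in the noncoding host gene MIR99AHG, was at 378 TPM in CHLA 02, 320 and 220 TPM in CHLA 04, 126 TPM in CHLA 05, and 537 and 464 TPM in CHLA 06.

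Other strong elements differed more between lines. The THE1C LTR in PBX3, a homeobox gene (chr9:125811326-125811681), was at 463 TPM in CHLA 02, 679 and 470 TPM in CHLA 04, 55.6 TPM in CHLA 05, and 46 and 56.6 TPM in CHLA 06. PBX3 was at 381 TPM over transcripts in CHLA 02, 627 and 440 in CHLA 04 and 79.7 in CHLA 05, with 40.9 and 49.3 in CHLA 06. The THE1D-int piece at chr9:64445737-64447274 was at 357 TPM in CHLA 02, 649 and 445 TPM in CHLA 04, 304 TPM in CHLA 05, and 13.3 and 14.3 TPM in CHLA 06, and 64.1% of its windows are single in the genome. In GENCODE 44 it lies on the strand of a gene listed by its identifier alone. A provirus in an exon of KIAA1161, named MYORG in GENCODE 44, had its internal THE1B piece (chr9:34367298-34368859) at 68 TPM in CHLA 02, 341 and 216 TPM in CHLA 04, 471 TPM in CHLA 05, and 32.1 and 35.6 TPM in CHLA 06. Its LTRs, 84.3% identical, were also lowest in CHLA 06, at 29.2 to 86.2 TPM, and highest in CHLA 05, at 445 and 587 TPM.

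Over the family, 5334 chains of LTR, internal piece and LTR lay on 1 strand, and 439 of them had 10 reads in a library. Of 388 with the same LTR at both ends and a single internal piece, the 3′ LTR had more reads per base than the 5′ LTR in 179 and fewer in 206.

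Of the elements with 10 reads in every library, the 5 farthest from Ensembl genes lay 46.8 to 145 kb from one. The pair of THE1B LTRs at chr2:223682541-223682899 and chr2:223668098-223668464 was at 70.7 to 182 TPM and at 95.8 to 274 TPM over the libraries, and both lie within AP1S3 in GENCODE 44. The THE1D-int piece at chr2:186385334-186386954, in LINC01473 of GENCODE 44, was at 9.49 TPM in CHLA 05 and 43 and 31.9 TPM in CHLA 06. The THE1C-int piece at chr6:80395132-80396542, outside the genes of both annotations, was at 7.26 to 28.4 TPM. The THE1B-int piece at chr9:39963661-39965204 was at 7.83 to 20.8 TPM, but none of its windows is single in the genome.

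Genes tied to THE1 in the literature were read as follows. CSF1R had no reads in 5 libraries and was at 0.06 TPM over transcripts in replicate 2 of CHLA 06. The THE1B LTR inside its span (chr5:150092453-150092809) and the THE1D LTR nearest upstream (chr5:150318110-150318466) had 0 reads in all 6 libraries, which allows a count of up to 3 reads each. The THE1D LTR lies in an intron of ARSI, far from the start of the annotated span of CSF1R at chr5:150113372. Whether the THE1B LTR inside the span is the one known from Hodgkin lymphoma was not looked at. PRDM9 was at 0 in all 6 libraries. TRIM28 and SETDB1, which silence retroelements through zinc finger proteins and histone methylation, were at 234 to 462 TPM and at 42.7 to 87.6 TPM.

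Motifs were counted at any position in 35500 THE1 LTRs of 340 to 380 bp. They were TATAAA, the letters of the core of a TATA box, AATAAA, those of a polyadenylation signal, and the binding motif of PRDM9. Positions were not compared over the family, so a TATAAA match may lie far from a promoter. TATAAA on the element's own strand was found in 73.3% of THE1C, 67.1% of THE1D and 56.8% of THE1B but in 2.10% of THE1A, and in 52.1% of MST and 28.3% of MLT1 LTRs of that length. AATAAA on the own strand was found in 13.9% of THE1B, 6.29% of THE1A, 4.96% of THE1D and 4.31% of THE1C. The PRDM9 motif, CCTCCCT followed by any 2 bases and then CCAC, was found on either strand in 0.919% of THE1B, 0.308% of THE1A, 0.15% of THE1D and 0.1% of THE1C, against 0.125% of MST and 0.0593% of MLT1 LTRs. LTRs with 10 reads in a library resembled the rest. TATAAA was found in 54.8% of 1353 with 10 reads and 57.5% of 34147 with fewer, and the PRDM9 motif in 0.296% and 0.539%. A match is a description of the letters and no sign of binding or of a start of transcription.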

How the data were processed

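Total RNA of the 4 cell lines was sequenced by the authors as stranded paired-end libraries with reads of 125 bp. The authors trimmed the reads with Trimmomatic and mapped them in the CLC Genomics Workbench to GRCh38, to Ensembl 82 transcripts and, separately, to RepeatMasker LTR features, and the deposited files give TPM for each transcript or LTR element. LTR values are rounded and sum over the LTR elements alone within each library, so a strong element lowers the others. How reads shared by copies were assigned, and whether strand was used, is not given in the sources used here.

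Groups came from the sample labels. TPM multiplied by length fell on whole steps, from which reads were recovered. In simulated libraries of 720177 elements, at least 99.998% of the elements with a TPM above 0 were exact. The 355302 to 511408 LTR reads per library set the precision, and Wilson and exact Poisson intervals cover counting error only. The file values called for no count model, since each line is 1 biological sample and no test was run. An element was tested with 10 reads in a library and called by size at 4-fold with a floor of 3 reads. Host genes came from the Ensembl models in the files, and GENCODE 44 was a further annotation. Named elements were the 12 with the highest mean TPM, up to 4 with the largest ratio in each line, 4 in each direction between CHLA 06 and CHLA 04, the 5 farthest from genes with 10 reads in every library, the 3 chains with the most reads and the THE1 element nearest upstream of CSF1R. The elements of loci, of the RAD51B stretch and of the neighbourhood of COL11A1, and the LTR within CSF1R, were added after their values were seen. Members and lists were chosen with earlier results of these data known. Python 3.11.15, numpy 2.4.6, pandas 2.3.3, scipy 1.17.1, bedtools 2.31.1 and matplotlib 3.10.9 were used. Alternatives changed the fold, the floor, the minimum of reads, the scaling, the elements and the libraries. The sequences of single elements are not reported here.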

Additional observations from a re-analysis of the deposited data

How the results depend on the processing

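Of 91 values under the settings chosen at first, 57 stayed within the spread between replicates, the counting interval or 1.5 times the main count, and 34 moved. Of 9 values added after seeing the data, 5 stayed and 4 moved. No paired analysis was possible because no test was run between lines and the replicate numbers mark technical replicates only. As a share of summed TPM, THE1 was at 10.8% in CHLA 02, 9.77% in CHLA 05 and 10.8% in CHLA 06. With elements that overlap exons left out, it was at 12.1%, 11.02% and 13.2%. Among elements of at least 200 bp it was at 11.4% in CHLA 02 and 10.4% in CHLA 05. Without the THE1 elements antisense in RAD51B it was at 10.7% in CHLA 02 and 9.86% in CHLA 06. A minimum of 5 reads gave 3819 THE1 elements and one of 20 reads gave 1136. At 2-fold, 13 elements were higher in CHLA 02, 82 in CHLA 04, 208 in CHLA 05, 166 in CHLA 06, 419 in CHLA 06 than CHLA 04 and 519 in CHLA 04 than CHLA 06. With a floor of 1 read, 21 were higher in CHLA 04, 120 in CHLA 05, 51 in CHLA 06, 326 in CHLA 06 than CHLA 04 and 452 in CHLA 04 than CHLA 06. Scaled by reads on transcripts, 7 were higher in CHLA 06 and 118 higher in CHLA 06 than CHLA 04, with no share of all LTR elements given under that scaling. Leaving out 1 technical replicate at a time gave 1 to 7 elements higher in CHLA 02, 11 to 48 in CHLA 04, 24 to 55 in CHLA 06 and 207 to 278 in CHLA 06 than CHLA 04. The extremes 7 and 278 were without CHLA 04 replicate 1, 48 without CHLA 04 replicate 2 and 55 without CHLA 06 replicate 2. Without CHLA 04 replicate 1, 17 were higher in CHLA 04, and without CHLA 06 replicate 1, 40 were higher in CHLA 06. Without the library labelled CHLA 02, 170 were higher in CHLA 04 and 159 in CHLA 06. The sense share was 94.0% with a minimum of 5 reads and 85.8% weighted by reads. Fewer reads or libraries change these counts by construction, and for the other settings the cause was not tested. Elements of few reads, near the floor of 3, limit the calls.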
